A study of Mus musculus with 4 samples.

Results

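Among the fibroblasts of mouse collecting lymphatic vessels and their surroundings, 111 cells stood out by transcripts of Col8a1, Adamts16 and Krtdap. They were chosen from raw counts of distinct transcript molecules (UMIs) in single cells. A fibroblast was a barcode with at least 1 Pdgfra and 5 Dcn UMIs and none of Ptprc, Pecam1 or Upk3b, after barcodes with under 500 UMIs, under 300 genes or 15% or more mitochondrial UMIs had been removed. A member was a fibroblast in which Col8a1, Adamts16 and Krtdap summed to 3 or more UMIs and exceeded each of 4 other sums, those of Pi16 and Dpp4, of Tcf21, Asb4 and Rspo3, of Tspan11, Pax1 and Mlana, and of Ngfr, Fgf10 and Gsc. Of 7162 fibroblasts among 23666 cells, 111 (1.55%, exact Clopper-Pearson 95% interval 1.28 to 1.86) were members. The remaining 7051, called other fibroblasts, comprised 3430 Pi16/Dpp4, 541 Tcf21/Asb4/Rspo3, 334 Tspan11/Pax1/Mlana and 311 Ngfr/Fgf10/Gsc fibroblasts, and 2435 cells with no leading sum.

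The cells came from untreated C57BL/6J mice, 4 male and 4 female, aged 12 to 14 weeks, with no further allele in any group. Vessels of popliteal, inguinal axillary, mesenteric and superficial cervical sites were dissected with adjoining tissue and combined for each animal, so that no cell can be traced to a site or to the vessel wall itself. A gene expression library and a library of multiplexing tags were made for each sex. No label links the 8 barcode suffixes to a mouse or a sex, so the deposited matrix counts as 1 pooled sample. Suffixes appear below as 8 unlabelled samples, no statistical test was made, and 95% intervals cover counting error only.

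Fibroblasts build and remodel the extracellular matrix, and those around vessels lie in the adventitia among collagen and elastic fibres. Col8a1 encodes a chain of type VIII collagen, a short-chain collagen that forms networks beneath endothelium and in vessel walls. Adamts16 encodes a secreted metalloprotease with thrombospondin repeats, Krtdap a small secreted protein known from differentiating keratinocytes, and Uchl1 a deubiquitinating enzyme abundant in neurons. Pi16 and Dpp4 are widely used as markers of adventitial, progenitor-like fibroblasts.

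The members were chiefly Col8a1 cells, and the pairing of Col8a1 with Adamts16 and Krtdap in the rule was rare within single cells. Of the rule UMIs in members, 91.3% came from Col8a1. Col8a1 led in 97 members, Adamts16 in 6 and Krtdap in 7, 1 member was tied, and 9 members had no Col8a1 UMI at all. UMIs of all 3 genes occurred together in only 5 members. Among all fibroblasts, 225 had 3 or more Col8a1 UMIs and 98 of these were members, whereas 12 of 258 cells with 3 or more Adamts16 UMIs and 8 of 161 cells with 3 or more Krtdap UMIs were members. Col8a1 (ENSMUSG00000068196, minus strand of chromosome 16, 57624258 to 57754737 on GRCm38) had 967 CPM (UMIs per 1000000 UMIs summed over the group) in members and 14.5 CPM in other fibroblasts. Adamts16 (ENSMUSG00000049538, chromosome 13) had 61.0 CPM in members and 23.1 CPM in other fibroblasts, and Krtdap (ENSMUSG00000074199, chromosome 7) 31.0 CPM in members and 15.8 CPM in other fibroblasts. Of the 1915 Adamts16 and 1315 Krtdap UMIs in other fibroblasts, 1866 and 1270 lay in the Pi16/Dpp4 group, at 41.3 and 28.1 CPM. In suffixes 5 to 8 alone Krtdap was not higher, with 20.9 CPM in members and 24.4 CPM in other fibroblasts, and Col8a1-led members had 5.70 CPM. These values are part of how the members were chosen and are given as a description. The cells are therefore called Col8a1-led or Adamts16- or Krtdap-led members below.

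Some cells lay near the limits of the rule. A sum of exactly 3 UMIs was found in 12 members, and 12 fibroblasts just outside had a leading sum of 2. Thbs4 had 441 CPM in the cells just inside and 442 CPM in those just outside. Most of its UMIs just inside came from a single cell with 59, and the next cell had 16. Fmod had 1161 CPM just inside and 390 CPM just outside. A further 481 fibroblasts had 3 or more rule UMIs but were not members, of which 466 were Pi16/Dpp4 fibroblasts and 13 were tied. Conversely, 77 of the 111 members carried a Pi16 or Dpp4 UMI. Members were deeper than other fibroblasts, with a median of 15773 against 11324 UMIs and 3971 against 3298 genes per cell. When the rule was applied after every cell had been thinned at random to 5000 UMIs, the number of members was 57, or 0.991% of the fibroblasts found at that depth. Uchl1, which the rule did not use, had 55.4 CPM in members, 29.2 CPM in other fibroblasts and 46.3 CPM in Pi16/Dpp4 fibroblasts. The ratio of members was 1.89 (1.55 to 2.30) to other fibroblasts and 1.20 (0.975 to 1.45) to Pi16/Dpp4 fibroblasts. Against other fibroblasts it was 1.79 (1.44 to 2.19) in suffixes 5 to 8 and 1.08 (0.433 to 2.23) in suffixes 1 to 4. Members were higher in 5 suffixes and lower in 3. In cells thinned to 5000 UMIs, 22 of 110 members (13 to 28.7%) and 10.9% of other fibroblasts (10.2 to 11.7%) had a Uchl1 UMI. The share was 0.230% of macrophages, which serve as the background of free RNA and had a median of 6953 UMIs.

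Members were spread unevenly over the suffixes. Suffixes 1 to 8 held 7, 3, 6, 4, 35, 19, 9 and 28 members, and the share of a suffix's fibroblasts ran from 0.313% to 3.49% with a median of 0.943%. Suffixes 5 to 8 held 91 members among 3739 fibroblasts (2.43%, 1.96 to 2.98) and suffixes 1 to 4 held 20 among 3423 (0.584%, 0.357 to 0.901). Of the 13 Adamts16- or Krtdap-led members, 7 were in suffixes 1 to 4. The tags show that the same 4 multiplexing oligonucleotides served both sets, but what separates the sets is not stated in the labels. No barcode was shared between members of different suffixes.

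**Figure D1:**
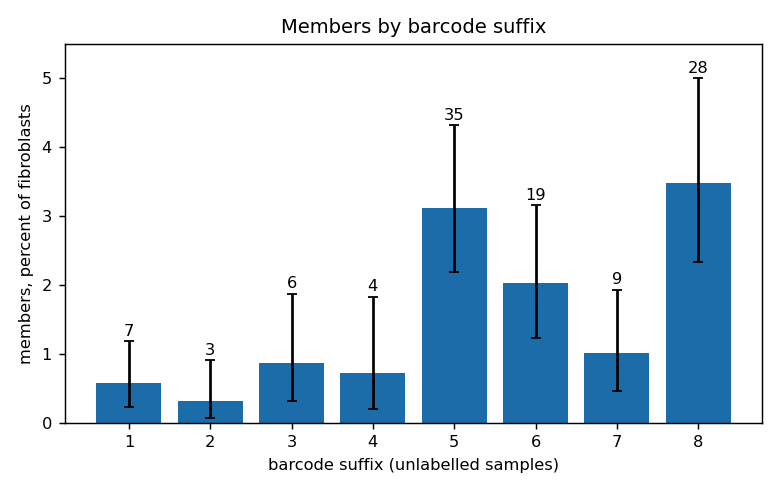
Members as a percent of the fibroblasts of each barcode suffix, with exact Clopper-Pearson 95% intervals and the number of members above each bar. Suffixes 5, 6 and 8 stand highest, at 3.13%, 2.03% and 3.49%.

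Among the ranked genes at 50 CPM or more, Thbs4, Sfrp5 and Fmod had the highest ratios of members to other fibroblasts. Cxcl13, Il1r2 and Tdo2 had the lowest. Of 6671 genes at 20 CPM or more in either group and outside the rule, 247 (3.7%) were 2-fold or more higher in members and 216 (3.24%) were 2-fold or more lower, and the median log2 ratio over all 6671 was 0.03. Among genes at 50 CPM or more, the 20 with the highest ratios were Thbs4, Sfrp5, Fmod, Mfap4, Pappa2, Kcnma1, Fgf9, Cilp, Angptl7, Fibin, Piezo2, Meox1, Ccn2, Tnc, Fbn2, Lcn2, Fhl2, Sfrp4, Lox and Cthrc1. The Pi16/Dpp4 fibroblasts were nearest to the members by this measure, with 4.82% of genes 2-fold or more higher in members and 3.89% lower. The shares were 5.89% and 6.31% against Tcf21/Asb4/Rspo3, 8.84% and 4.87% against Tspan11/Pax1/Mlana, and 7.33% and 5.88% against Ngfr/Fgf10/Gsc fibroblasts. All 20 genes were higher in members than in each of the 4 other fibroblast groups, and in 14 of them the next highest of those groups was the Pi16/Dpp4 one. All 20 were 2-fold or more higher in suffixes 5 to 8, and 18 in suffixes 1 to 4, the exceptions being Meox1 and Lcn2. The ranking used pooled ratios and required members to be higher in suffixes 5 and 8, which each held 20 or more members. Agreement in suffixes 5 to 8, with 91 of the 111 members, was thus largely part of the choice.

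Stretches before the starts of 3 genes are shown because Col8a1 selects most members and Thbs4 and Fmod had the highest ratios among genes found in over 30 members. Each is the 250 bases upstream of the RefSeq start, 5′ to 3′ on the gene's strand, GRCm38.p6. Capitals mark E-box letters (CANNTG) and TEAD letters (GGAATG or its reverse complement CATTCC). Col8a1 lies at chr16:57754738-57754987 on the minus strand, Thbs4 at chr13:92794819-92795068 on the minus strand and Fmod at chr1:134037004-134037253 on the plus strand.
Col8a1: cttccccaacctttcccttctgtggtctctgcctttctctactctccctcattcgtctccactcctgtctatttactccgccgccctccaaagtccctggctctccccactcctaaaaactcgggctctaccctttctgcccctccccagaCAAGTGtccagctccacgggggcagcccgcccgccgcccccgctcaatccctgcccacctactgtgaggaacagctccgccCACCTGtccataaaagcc
Thbs4: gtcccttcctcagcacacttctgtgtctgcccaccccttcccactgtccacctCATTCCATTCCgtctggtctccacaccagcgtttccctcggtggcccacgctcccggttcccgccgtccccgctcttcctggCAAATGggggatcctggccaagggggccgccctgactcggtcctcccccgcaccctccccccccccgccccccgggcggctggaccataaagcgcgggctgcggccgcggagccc
Fmod: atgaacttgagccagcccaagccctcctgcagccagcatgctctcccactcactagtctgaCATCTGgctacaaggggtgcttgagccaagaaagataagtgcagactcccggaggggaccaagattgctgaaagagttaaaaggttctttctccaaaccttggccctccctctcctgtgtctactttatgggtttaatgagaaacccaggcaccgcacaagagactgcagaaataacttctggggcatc
The Thbs4 stretch held 2 overlapping TEAD matches and the other stretches none, and no stretch held the AP-1 letters TGANTCA. Of the 20 genes, 12 were in the promoter table. On either strand, E-box letters occurred in 8 of the 12 and in 66.2% of all 32851 stretches, TEAD letters in 2 of the 12 and in 12.6% of all, and AP-1 letters in 0 of the 12 and in 6.75% of all.

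Thbs4 (ENSMUSG00000021702, minus strand of chromosome 13, 92751590 to 92794818) encodes thrombospondin-4, a matrix glycoprotein of tendon and muscle. Over the suffixes it had 61.6 CPM at the lowest, 188 CPM at the median and 2150 CPM at the highest in members, against 3.62, 9.83 and 21.5 CPM in other fibroblasts. The ranges did not overlap, but the share of all genes with ranges apart is not given here. Thbs4 was picked by its pooled ratio, by which 3.7% of all genes tested were called higher. Pooled, it had 459 CPM in members and 10.6 CPM in other fibroblasts, a ratio of 43.4 (39.5 to 47.7). Its 888 UMIs came from 43 members, and 20.3% of them from a single cell.

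Fmod (ENSMUSG00000041559, plus strand of chromosome 1, 134037254 to 134048277) encodes fibromodulin, a small leucine-rich proteoglycan that binds collagen fibrils. Its lowest, median and highest levels over suffixes were 91.6, 644 and 1124 CPM in members, against 16.7, 28.7 and 72.5 CPM in other fibroblasts. Again the ranges did not overlap, for a gene also picked by its pooled ratio. The pooled levels of 681 CPM in members and 35.5 CPM in other fibroblasts gave a ratio of 19.2 (18.0 to 20.5). It was found in 44 members.

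Mfap4, a protein of elastic microfibrils, ran from 0 CPM through a median of 447 to 1269 CPM over the suffixes in members, against 33.0, 40.7 and 60.5 CPM in other fibroblasts. Cilp, a cartilage matrix protein that binds TGF-beta, ran from 0 CPM through 1004 to 1462 CPM in members, against 48.6, 101 and 140 CPM in other fibroblasts. For both genes 1 suffix was lower in members, so that the ranges overlapped. The pooled ratios were 14.3 (13.4 to 15.3) for Mfap4 and 12.3 (11.8 to 12.9) for Cilp, which was the most widespread of the 20 genes, with a UMI in 81 members.

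Angptl7, a secreted angiopoietin-like protein, had 668 CPM in members and 57.1 CPM in other fibroblasts, with 1292 UMIs from 34 members. Pappa2, a protease that cleaves IGF-binding proteins, had 277 CPM in members and 19.8 CPM in other fibroblasts. Kcnma1, the pore-forming subunit of the large-conductance calcium-activated potassium channel, had 135 CPM in members and 9.62 CPM in other fibroblasts. It was higher in members in 8 of 8 suffixes, at 30.5 to 271 CPM against 5.51 to 14.1 CPM. Piezo2, a mechanically gated cation channel, had 151 CPM in members and 16 CPM in other fibroblasts and was also higher in 8 of 8 suffixes, with a ratio of 23.2 in suffixes 5 to 8 and 3.02 in suffixes 1 to 4.

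The rest of the 20 had ratios from 6.01 for Cthrc1 to 27.7 for Sfrp5. Lcn2, a siderophore-binding lipocalin, was 5.56-fold higher in suffixes 5 to 8 and had a ratio of 0.316 in suffixes 1 to 4. Meox1, a homeobox transcription factor, was 9.29-fold higher in suffixes 5 to 8 with a ratio of 0.971 in suffixes 1 to 4. Fgf9, a secreted fibroblast growth factor, had 56.4 CPM in members and 4.39 CPM in other fibroblasts. After thinning to 5000 UMIs a Fgf9 UMI was present in 19.1% of members and 1.41% of other fibroblasts, but also in 6.98% of macrophages.

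**Figure D2:**
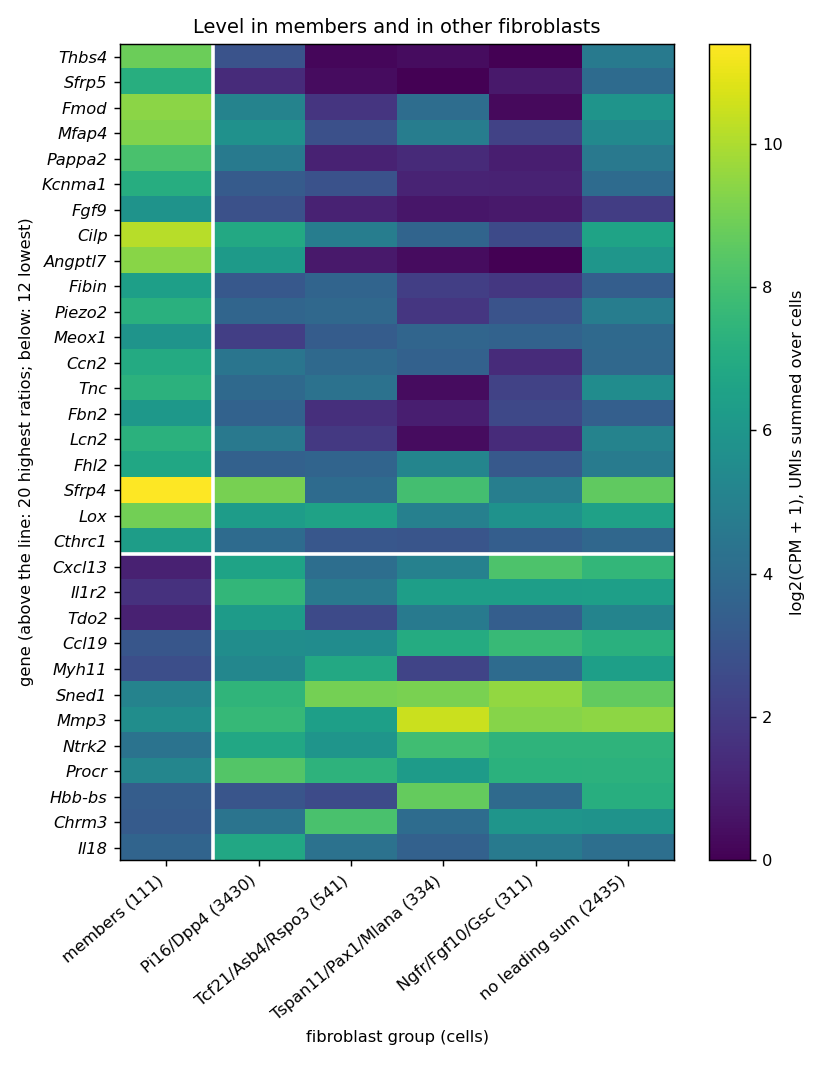
Levels, as log2(CPM + 1) of UMIs summed over cells, of the 20 genes with the highest and the 12 with the lowest ratio, in members (left) and in the other fibroblast groups. Thbs4 is at 459 CPM in members and between 0 and 6.62 CPM in the 4 groups with a leading sum, while Cxcl13 is at 1.03 CPM in members.

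The 12 genes with the lowest ratios among those at 50 CPM or more included immune signals and receptors. Cxcl13, a chemokine for B cells, had 2 UMIs or 1.03 CPM in members and 121 CPM in other fibroblasts, a ratio of 0.00852 (0.00103 to 0.0308). Il1r2, a decoy receptor for interleukin-1, had 2.07 CPM in members and 135 CPM in other fibroblasts. Ccl19, a ligand of the lymphocyte receptor CCR7, had 7.24 CPM in members and 86.2 CPM in other fibroblasts. Mmp3, a matrix metalloproteinase, had 46.6 CPM in members and 402 CPM in other fibroblasts, and Sned1, a matrix glycoprotein, 33.6 CPM in members and 312 CPM in other fibroblasts. The other 7 were Tdo2, Myh11, Ntrk2, Procr, Hbb-bs, Chrm3 and Il18. In 9 of the 12 the members lay below all 4 other groups, and 10 were lower in 8 of 8 suffixes. Being lower in suffixes 5 and 8 was a condition of the ranking. Hbb-bs, a haemoglobin gene of red cells, was not among those 10 and had 9.31 CPM in members and 6.91 CPM in Pi16/Dpp4 fibroblasts.

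The genes were not shared evenly among members. The 20 were ranked on the pooled members, 97 of which were Col8a1-led. Higher levels in Col8a1-led members are thus largely part of that choice and are given as a description. Summed over the 20 genes, Col8a1-led members had 9130 CPM, Adamts16- or Krtdap-led members 434 CPM and other fibroblasts 895 CPM. Per cell, the sum ran from 55.0 to 42742 CPM of the cell in Col8a1-led members with a median of 5344, and from 0 to 1464 in Adamts16- or Krtdap-led members with a median of 215. In other fibroblasts the median was 205 and the highest cell 42136, so that single cells outside the rule reached the same levels. All 20 genes were lower in Adamts16- or Krtdap-led than in Col8a1-led members, and 10 had no UMI there, in 13 cells with 168179 UMIs, where 3 UMIs correspond to 17.8 CPM, so that levels below this rest on 2 UMIs or fewer. The median gene of the 20 was found in 43 of 111 members, and 5 of the 20 were found in at least 56 members.

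**Figure D3:**
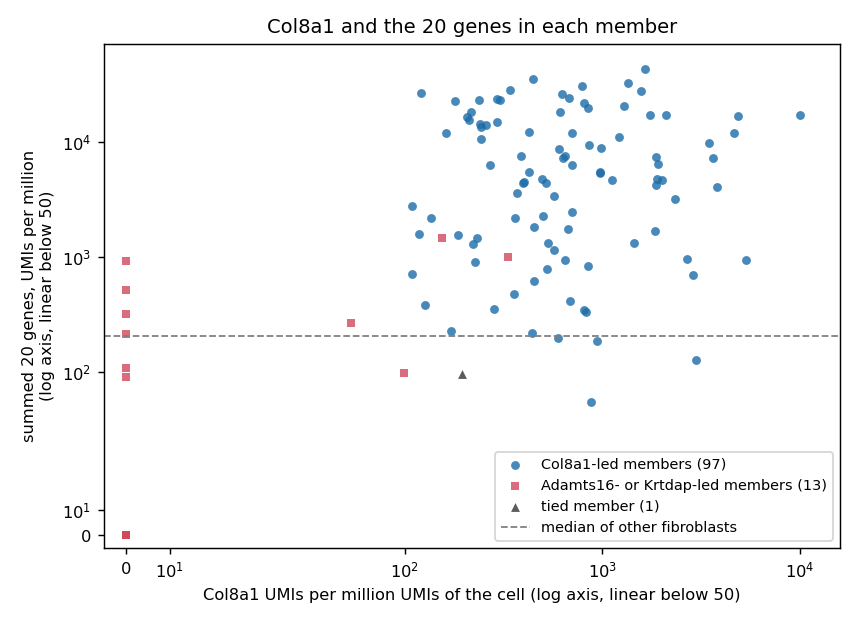
Each point is a member, placed by its Col8a1 UMIs (horizontal) and its summed UMIs of the 20 genes (vertical), both in CPM of the cell on log axes that are linear below 50. Most Col8a1-led members lie above the dashed median of other fibroblasts (205), and the Adamts16- or Krtdap-led members spread around it (median 215). The 20 genes were ranked on the pooled members, most of them Col8a1-led, so this difference is largely part of the choice.

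Clustering the fibroblasts without the rule's genes or Uchl1 split the members among several programmes of expression. At a resolution of 1.0, 14 of 19 clusters held members. Cluster 0, led by Angptl7, Fmod and Pappa2, held 37 members (33.3%) in 449 cells, of which 334 were Pi16/Dpp4 fibroblasts. Cluster 5, led by Tmtc2 and Tnfrsf11b, with Adamts16 and Bmp6 below them, held 23 members in 459 cells. These included 7 of the 13 Adamts16- or Krtdap-led members. The 436 other fibroblasts of cluster 5 had 147 CPM of Adamts16, 84.6 CPM of Krtdap and 121 CPM of Uchl1. Its members had 267, 52.9 and 93.25 CPM of the same genes. Cluster 7, led by Pnoc, Tmem108 and Pdzrn4, with Col8a1 further down, held 21 members in 337 cells. Cluster 4, led by the adipose genes Cfd, Retn and Adipoq, held 8 members in 788 cells. No cluster was made up mostly of members, and the highest share was 20.7% in cluster 15. At resolutions of 0.5 and 2.0 the largest cluster of members held 42.3% and 27.0% of them.

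Within clusters, levels in members and in the remaining cells differed in either direction. In cluster 0, members had 2001 CPM of Fmod, 1979 CPM of Angptl7 and 831 CPM of Thbs4, against 410, 707 and 72.4 CPM in the other fibroblasts of the cluster. In cluster 7, members had 1973 CPM of Cilp, 786 CPM of Thbs4 and 489 CPM of Piezo2, against 214, 0.893 and 49.1 CPM in the other fibroblasts. Thbs4 there came from 9 of 21 members, and 180 of its 315 UMIs from 1 cell, without which the level in members was 364 CPM. In cluster 15, Thbs4 had 449 CPM in members and 820 CPM in the other fibroblasts. In cluster 12, Thbs4 had 249 CPM in its 4 members and 239 CPM in the other fibroblasts, and Piezo2 had 35.5 CPM in members and 213 CPM in the other fibroblasts. Meox1 had 197 CPM in the members of cluster 7 and 12.4 CPM in the members of cluster 0, whereas Lcn2 had 2.49 CPM in the members of cluster 7 and 458 CPM in those of cluster 0. The 23 members of cluster 5 had 1 Thbs4, 1 Fmod and 0 Angptl7 UMIs. Cilp was present in 15 of them, at 418 CPM in members and 113 CPM in the other fibroblasts of the cluster, and Piezo2 in 9, at 75.6 CPM in members and 23.8 CPM in the other fibroblasts.

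**Figure D4:**
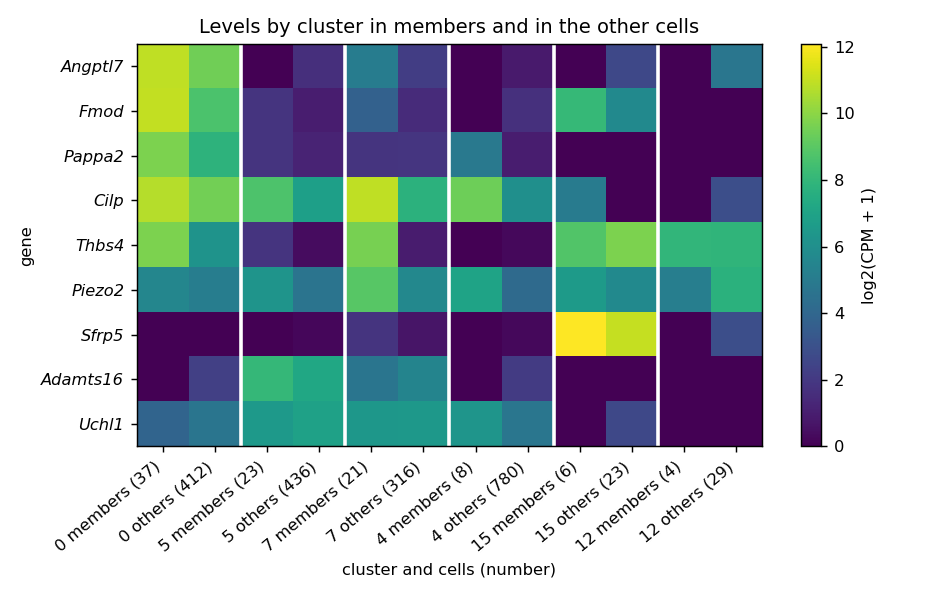
Levels, as log2(CPM + 1), of 9 genes in the members (left of each pair) and the other fibroblasts of the 6 clusters with 4 or more members, with cell numbers in parentheses. Fmod and Angptl7 are highest in the members of cluster 0 (2001 and 1979 CPM), Piezo2 in those of cluster 7 (489 CPM), and Sfrp5 in those of cluster 15 (4349 CPM). Cilp is high in the members of both cluster 0 (1695 CPM) and cluster 7 (1973 CPM).

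A few members carried a different set of transcripts. Sfrp5, a secreted Wnt antagonist, had 141 CPM in members and 5.09 CPM in other fibroblasts, but its 272 UMIs came from 7 members, 6 of them in cluster 15. Cluster 15 had 29 cells and was led by Sfrp5, Itgb4, Tenm2, Moxd1, Itga6, Cldn1 and Lypd2. It is called perineurial-like from the markers Itgb4, Moxd1, Cldn1 and Lypd2. The perineurium is the sheath around nerve bundles. Its 6 members had 1091 CPM of the glucose transporter Slc2a1 and 674 CPM of the tight junction protein Cldn1, against 711 and 644 CPM in its other 23 cells. The 6 perineurial markers summed to 158 CPM in members and 24 CPM in other fibroblasts, and to 8.16 CPM in the members without a Sfrp5 UMI.

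On the list of elastic fibre genes, 10 of 23 tested genes were 2-fold or more higher and 0 lower, with a median log2 ratio of 0.83. A gene at 20 CPM or more in 1 group alone passed the filter through that group and could be called only in its direction. This holds for every list below. Among the higher elastic fibre genes, Fbn2, Fbln7, Ltbp2 and Loxl4 passed through members alone. Eln, which encodes elastin, had 1017 CPM in members and 248 CPM in other fibroblasts, Lox, which cross-links elastin and collagen, 491 CPM in members and 80.3 CPM in other fibroblasts, and Fbln2, a fibulin, 1153 CPM in members and 437 CPM in other fibroblasts. In suffixes 1 to 4 alone, 5 of 21 elastic fibre genes were higher and 1 lower, where 7.75% of all genes tested were higher and 7.86% lower. Of the adhesive and matricellular proteins, 10 of 23 were higher and 1 lower, with a median of 0.91. They included Tnc, an anti-adhesive glycoprotein, with 159 CPM in members and 22.2 CPM in other fibroblasts. Thbs2 and Ccn2, both matricellular proteins, had 319 and 122 CPM in members, against 91.9 and 16.5 CPM in other fibroblasts. Sparcl1, a relative of SPARC, was the lower one, with 70.9 CPM in members and 159 CPM in other fibroblasts.

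Of the proteoglycans, 5 of 16 were higher and 0 lower (median 0.65), among them biglycan (Bgn), with 1964 CPM in members and 586 CPM in other fibroblasts, and asporin (Aspn), with 1074 CPM in members and 298 CPM in other fibroblasts. The fibrillar collagens gave 0 of 7 in either direction at a median of 0.58, and the other collagens 1 of 14 higher and 0 lower at a median of 0.45. That gene was Col12a1, a collagen that coats fibrils, with 130 CPM in members and 37.3 CPM in other fibroblasts, and its ratio was 3.96 in suffixes 5 to 8 and 1.38 in suffixes 1 to 4. Of the tendon, ligament and synovial genes, 4 of 8 were higher and 0 lower (median 1.24), namely Thbs4, Fmod, Comp and Tnmd. Comp, a cartilage oligomeric matrix protein, was higher in 2 of 8 suffixes and lower in 6, and 64 of its UMIs came from 4 members of cluster 0. Tnmd, a tendon membrane protein, had 116 CPM in members and 32.0 CPM in other fibroblasts and was higher in 4 of 8 suffixes, with no UMI in the members of suffixes 1 to 4. The ADAMTS and MMP proteases gave 3 of 26 higher and 3 lower (median -0.30). Adamts19 was the highest of the 3, with 90.0 CPM in members and 19.0 CPM in other fibroblasts. All 3 higher ones passed the filter through members alone, and of the lower ones Adamts15 did so through other fibroblasts alone. The chondro-osteogenic list gave 0 of 4 in either direction (median -0.11).

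Among signalling genes, 6 of 11 Wnt ligands, R-spondins and Wnt inhibitors were higher and 0 lower, with a median log2 ratio of 1.09. Sfrp4 and Sfrp2, secreted Wnt inhibitors, had 2683 and 1954 CPM in members, against 406 and 367 CPM in other fibroblasts, and Dkk2, which binds Wnt co-receptors, had 271 CPM in members and 64.1 CPM in other fibroblasts. Without the 7 members that had a Sfrp5 UMI, 3 of 9 tested Wnt genes were higher, against 3.32% of all genes tested. Sfrp5 is itself on the list, so its own loss was fixed by leaving those members out. Growth factors and IGF-binding proteins gave 7 of 27 higher and 4 lower (median 0.11). The higher ones included Igfbp3, with 495 CPM in members and 141 CPM in other fibroblasts (a ratio of 3.33 in suffixes 5 to 8 and 1.71 in suffixes 1 to 4), and the lower ones Vegfa, with 21.2 CPM in members and 59.5 CPM in other fibroblasts. The lymphangiogenic factor Vegfc had 45.0 CPM in members and 21.6 CPM in other fibroblasts, with a ratio of 2.58 in suffixes 5 to 8 and 0.938 in suffixes 1 to 4. BMP, TGF-beta and activin genes gave 2 of 20 higher and 3 lower (median 0.01), among them Tgfb3, with 88.5 CPM in members and 32.8 CPM in other fibroblasts, and Gdf10, with 31.6 CPM in members and 185 CPM in other fibroblasts.

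Chemokines and cytokines went mainly the other way, with 2 of 23 higher and 7 lower (median -0.61). Ccl11, an eosinophil chemokine, had 264 CPM in members and 762 CPM in other fibroblasts, and Cxcl12, a ligand of CXCR4, 61.0 CPM in members and 291 CPM in other fibroblasts. Cxcl10, an interferon-induced chemokine, had 63.6 CPM in members and 253 CPM in other fibroblasts. Complement genes gave 1 of 12 higher and 2 lower (median -0.58), and of the lower ones C4b had 70.4 CPM in members and 213 CPM in other fibroblasts. Prostanoid and vasoactive genes gave 1 of 16 higher and 5 lower (median -0.71). The prostacyclin synthase Ptgis had 363 CPM in members and 134 CPM in other fibroblasts, and the endothelin precursor Edn1 29.5 CPM in members and 94.6 CPM in other fibroblasts, with a ratio of 0.194 in suffixes 5 to 8 and 0.907 in suffixes 1 to 4.

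**Figure D5:**
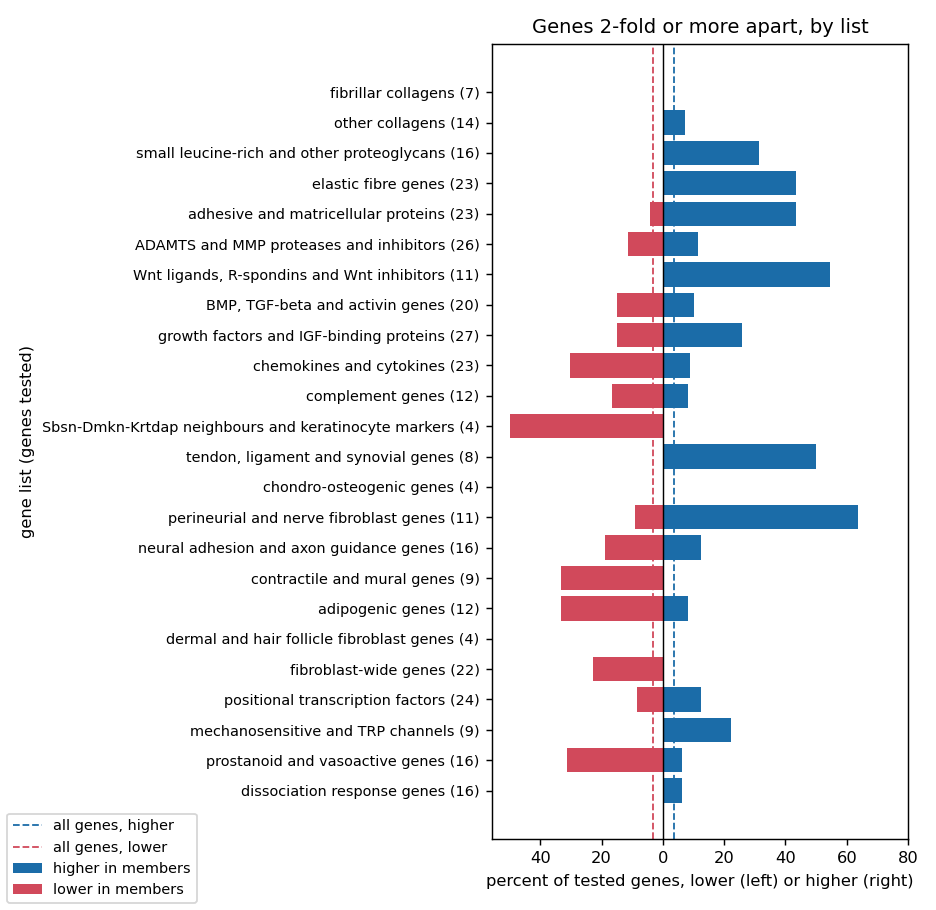
Percent of each list's tested genes that were 2-fold or more higher (right) or lower (left) in members than in other fibroblasts, with the number tested in parentheses and dashed lines at 3.7% and 3.24% for all genes. Wnt, tendon, elastic fibre and adhesive protein lists extend to the right, and chemokines, contractile and adipogenic genes mainly to the left.

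The perineurial and nerve fibroblast list had 7 of 11 genes higher and 1 lower (median 3.12). All 7 were under 20 CPM in other fibroblasts and were tested only through their level in members. Their count and the median are therefore a description. Without the 7 members with a Sfrp5 UMI, 0 of 4 tested were higher and 2 were lower, against 3.32% and 3.54% of all genes tested. Sfrp5 is on this list too, so its own loss was fixed by leaving those members out. Neural adhesion and axon guidance genes gave 2 of 16 higher and 3 lower (median 0.32), with the cell adhesion gene Ncam1 at 34.1 CPM in members and 8.53 CPM in other fibroblasts. Its ratio was 11.8 in suffixes 5 to 8 and 1.09 in suffixes 1 to 4. Of the mechanosensitive and TRP channels, 2 of 9 were higher and 0 lower (median 0.27), Piezo2 and Kcnk2, a mechanically gated potassium channel with 47.1 CPM in members and 9.21 CPM in other fibroblasts. Both were under 20 CPM in other fibroblasts and were tested only through their level in members. Trpv4, the channel the study is about, had 7 UMIs or 3.62 CPM in members and 3.00 CPM in other fibroblasts, a ratio of 1.21 (0.480 to 2.52), and did not reach the 20 CPM needed to be tested. Positional transcription factors gave 3 of 24 higher and 2 lower (median 0.08). The 22 tested fibroblast-wide genes gave 0 higher and 5 lower (median -0.57), among them Gsn, an actin-severing protein, with 9047 CPM in members and 22027 CPM in other fibroblasts. Adipogenic genes gave 1 of 12 higher and 4 lower (median -0.71), contractile and mural genes 0 of 9 higher and 3 lower (median 0.09), dermal and hair follicle genes 0 of 4 in either direction (median 0.04), and dissociation response genes 1 of 16 higher and 0 lower (median -0.20). The list of Krtdap's neighbours and keratinocyte genes gave 0 of 4 higher and 2 lower (median -2.11), the epithelial keratins Krt8 and Krt18. Krt8 had 2.07 CPM in members and 29.5 CPM in other fibroblasts, but its ratio was 1.58 in suffixes 5 to 8. There all 7 epithelial markers summed to 0.598 CPM in members and 0.687 CPM in other fibroblasts, too low to read a direction. In those suffixes 0 of 2 tested genes of the list were higher or lower by 2-fold.

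Markers were read as whole lists. All 8 fibroblast markers were present and summed to 26524 CPM in members and 18396 CPM in other fibroblasts. The tenocyte and sheath markers summed to 1313 CPM in members, 334 to 1689 CPM over suffixes, and to 405 CPM in other fibroblasts, 254 to 515 CPM over suffixes. Of these, Fmod and Tppp3 made up most of the sum in members, at 681 and 504 CPM, and Tppp3 had a ratio of 1.50. Scx, a transcription factor of tendon, had 11.9 CPM in members and was found in 13, of which 11 were in cluster 0. Mkx had 1 UMI in members and a ratio of 0.766 (0.0191 to 4.45). Macrophage markers summed to 135 CPM in members and 183 CPM in other fibroblasts, smooth muscle and pericyte markers to 84.3 CPM in members and 263 CPM in other fibroblasts, and blood endothelial markers to 37.8 CPM in members and 23.3 CPM in other fibroblasts, with Emcn and Vwf at 0 in members. Of the blood endothelial markers, Cdh5 had 12.9 CPM in members and 1.27 CPM in other fibroblasts, a ratio of 10.2 (6.33 to 15.9), and Flt1 had 9.31 CPM in members and 1.76 CPM in other fibroblasts, a ratio of 5.29 (3.05 to 8.66), in 6 and 8 members. Mesothelial markers summed to 34.7 CPM in members and 37.8 CPM in other fibroblasts, and Schwann markers to 21.2 CPM in members and 30.7 CPM in other fibroblasts. Lymphatic endothelial markers reached 9.31 CPM in members and 10.6 CPM in other fibroblasts, adipocyte markers 3.10 CPM in members and 12.2 CPM in other fibroblasts, lymphocyte markers 1.55 CPM in members and 1.71 CPM in other fibroblasts, and chondrocyte markers 23.3 CPM in members and 39.6 CPM in other fibroblasts, with 4 of 5 chondrocyte markers at 0 in members. Keratinocyte and other epithelial markers summed to 2.07 CPM in members, with 6 of 7 at 0, and to 83.3 CPM in other fibroblasts, where they ran from 0.557 to 444 CPM over suffixes. The skeletal muscle markers were all at 0 in members. A doublet caller marked 1 of 111 members and 144 of 7162 fibroblasts. The part that transcripts of other cell types or depth per cell had in these results was not tested.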

How the data were processed

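Single-cell RNA was measured in suspensions from collecting lymphatic vessels and adjoining tissue, with 1 gene expression and 1 tag library per sex, per the labels. The authors deposited 1 matrix of raw UMI counts with 24046 barcodes, 32285 genes and 12 tags. Per the file headers it was written by Cell Ranger, version 7.1.0; the processing notes of the submitters also list Seurat (4.3.0.1) and the build mm10, without roles. The annotation behind the counts is not stated in these sources. Gene positions come from GENCODE M21 on GRCm38 and upstream sequences from RefSeq on GRCm38.p6. The members, gene lists and markers were chosen with earlier results of these data known.

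Barcodes under 500 UMIs, under 300 genes or at 15% or more mitochondrial UMIs were removed, 380 in all. UMIs were summed over cells and scaled to CPM by the 1933126 UMIs of members and 82970360 UMIs of other fibroblasts. A gene was tested at 20 CPM or more in either group and called at a ratio of 2 or more either way; the 19 genes of the rule were left out. Ratios carry exact conditional binomial intervals and shares Clopper-Pearson intervals at 95%. The text names the 4 markers, the 20 highest and 12 lowest ratios at 50 CPM or more with an interval clear of 1 and the same direction in both suffixes with 20 or more members, and list genes past the fold, mostly by highest CPM; Vegfc, Ncam1 and Trpv4 were chosen after their values were seen. Mitochondrial, Rpl, Rps, Gm and Rik names were left out of the ranking. Shares were compared after thinning each cell to 5000 UMIs, with macrophages (Ptprc and complement C1q UMIs, no Pdgfra or Dcn) as background. Doublets were scored per set of 4 suffixes with Scrublet in scanpy 1.11.5 and kept in the main results. Leiden clusters used 2000 variable genes without the rule's genes and Uchl1 and 30 components. The ratio step was tested on simulated data. Cells are not replicates, so no p-value was computed. Alternatives changed the rule, gate, cell filter, depth, scaling, filter on low values, comparison group and suffixes.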

Additional observations from a re-analysis of the deposited data

Results flagged for a closer look

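For 12 of the 37 levels examined over the 8 suffixes, the members of 1 suffix stood far from those of the others. The rule used marks about 1 in 20 groups by chance where values are normally distributed. That rate cannot be applied here, because some suffixes held few members and several levels rested on 1 cell or a few UMIs. The count of 12 is therefore a description and is not read as an excess over chance. In the 4 members of suffix 4, Sfrp5 had 2046.6 CPM and Adamts16 580.37 CPM, and the nearest other suffix had 375 and 217 CPM. All 67 Sfrp5 UMIs there came from 1 cell. In the 3 members of suffix 2, Thbs4 had 2150.5 CPM, Fibin 605.49 CPM and Cxcl13 20.879 CPM, and the nearest other suffix had 647, 102 and 1.50 CPM. All 103 Thbs4 UMIs there came from 1 cell, and the Cxcl13 level rested on 1 UMI. In the 7 members of suffix 1, Krtdap had 225.9 CPM and Ccl19 30.804 CPM, from 22 and 3 UMIs, with 64.4 and 12.0 CPM in the nearest other suffix. In the 9 members of suffix 7, Pappa2 had 932.47 CPM and Hbb-bs 50.404 CPM, from 148 and 8 UMIs, with 306 and 12.1 CPM in the nearest other suffix. Ntrk2 had 84.581 CPM, from 7 UMIs, in the 6 members of suffix 3, with 21.0 CPM in the nearest other suffix. Il1r2 with 6.7825 CPM in suffix 6 and Tdo2 with 2.9974 CPM in suffix 5 rested on 4 and 2 UMIs in all members. The cause of these differences was not tested.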

How the results depend on the processing

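No paired analysis was possible because the matrix holds 1 pooled sample whose barcodes name neither mouse nor sex. With all 36 named genes recomputed under each setting, 4 changed direction: Krtdap, a gene of the rule, in suffixes 5 to 8 alone (log2 ratio -0.22) and in Col8a1-led members alone (-1.48), Meox1 (-0.042) and Lcn2 (-1.66) in suffixes 1 to 4 alone, and Hbb-bs (0.43) against Pi16/Dpp4 fibroblasts alone. The share of fibroblasts that were members was 1.20% at a rule sum of 5 or more, 2.43% in suffixes 5 to 8 and 0.584% (20 members) in suffixes 1 to 4. With the rule applied after thinning to 5000 UMIs it was 0.991% (57 members). Genes higher and lower numbered 247 and 216 of 6671 tested in the main setting (3.7% and 3.24%). In suffixes 1 to 4 they numbered 543 and 551 of 7008 tested (7.75% and 7.86%). At 50 CPM or more they numbered 127 and 123 of 3482 tested, and with no filter on low values 2148 and 8928 of 23333 tested. With each suffix left out in turn, members numbered 76 to 108 and the share ran from 1.26% to 1.75%. Of 6621 to 6740 genes tested there, 243 to 264 were higher and 215 to 252 lower. Scaling by the median ratio shifted all genes by 0.046 on the log2 scale and gave 225 higher and 240 lower of 6671 tested. The settings by suffix set, by Sfrp5 UMI, by leading gene, against Pi16/Dpp4 fibroblasts and without the cell richest in a gene were chosen after seeing the data. With 20 members in suffixes 1 to 4, levels there are imprecise.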

Other observations

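Col8a1 transcripts were not confined to the members. Another 127 fibroblasts had 3 or more Col8a1 UMIs without meeting the rule, 118 of them Pi16/Dpp4 fibroblasts. Cilp had 1148 CPM in members, 732 CPM in these 127 cells and 93.1 CPM in all other fibroblasts, and Sfrp4 had 2683, 1099 and 406 CPM in the same order. Fmod had 681 CPM and Thbs4 459 CPM in members, against 145 and 84.2 CPM in the 127 cells. Sfrp5 had no UMI in these 127 cells. In the 258 fibroblasts with 3 or more Adamts16 UMIs, of which 12 were members, Thbs4 had 1 UMI.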
